A study of Mus musculus with 2 samples.

Results

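The Aqp1 peak cluster is a run of 18 EP300 peaks that surrounds Aqp1, the gene of the water channel aquaporin 1, on chromosome 6 of the mouse. The 18 peaks were chosen by position: they are all the peaks of the authors' optimal list whose summit lies in chr6:55300000-55390000 (mm10), out of 17055 peaks in that list. The window was set around a place already seen to hold many peaks, so the number of peaks, their signals and the rank of the cluster describe the choice and were not tested. The series holds 2 ChIP-seq libraries, numbered replicates 1 and 2, made with an antibody against EP300 from embryonic liver of mouse strain B6NCrl at 14.5 days. Livers from several dissections were pulverized and pooled, with males and females together, and both libraries carry the same biosample label, so the difference between them may be technical. There was 1 group, with no other tissue, age, genotype or treatment.

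EP300 is a histone acetyltransferase that transcription factors recruit to enhancers and promoters, where it acetylates histones and helps to start transcription. ChIP-seq with an EP300 antibody therefore marks candidate regulatory DNA and does not measure expression. Aquaporin 1 lets water cross the membrane of red blood cells, endothelium, kidney tubules and other epithelia, and it carries the Colton blood group antigens. The fetal liver is the main organ of red cell formation at this stage, and GATA1, together with TAL1 at E-boxes, is a central activator of red cell genes. Mindy4, which ends upstream of Aqp1 on the same strand, is named for a family of deubiquitinases, and Ghrhr, downstream, encodes the receptor of growth hormone-releasing hormone in the pituitary.

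The organ holds many cell types, and in a bulk sample EP300 in fewer cells and less EP300 per cell cannot be told apart. A peak list gives no expression with which to check the tissue label. The optimal list did have peaks near a transcription start site (TSS), within 20 kb, of the hepatocyte genes Alb (2 peaks, strongest signal 20.001) and Afp (2, 22.7) and of the globin gene Hbb-bs (14, 241.3). The signal is the peak caller's own value for each peak, and each list has its own scale. Ranks, counted from the strongest peak, are therefore used to compare libraries. No file gives read totals, so depth is unknown.

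The sequences at 8 of the summits are shown first, because the letters at the strongest peaks, at the peaks with a composite site and at the strongest peak with no GATA site carry the description that follows. Each is the plus strand of GRCm38 (mm10) from 60 bases before to 60 after the summit, 5′ to 3′. Capitals mark a GATA site (the letters GATA after an A or a T and before an A or a G, on either strand, so that a site on the minus strand holds TATC) and, in a composite, the CTG of an E-box 7 to 9 bases before the GATA site (CAG after it on the minus strand). Peaks are named by their distance from the Aqp1 TSS, with minus for upstream.
-12.3 kb, chr6:55324060-55324180, the strongest peak: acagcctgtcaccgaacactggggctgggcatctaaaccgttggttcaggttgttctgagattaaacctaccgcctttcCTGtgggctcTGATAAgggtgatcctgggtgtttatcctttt
+3.2 kb, chr6:55339589-55339709, the next by signal: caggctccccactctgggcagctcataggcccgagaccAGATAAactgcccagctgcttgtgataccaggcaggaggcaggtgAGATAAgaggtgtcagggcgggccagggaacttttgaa
+22.6 kb, chr6:55358930-55359050, next again by signal: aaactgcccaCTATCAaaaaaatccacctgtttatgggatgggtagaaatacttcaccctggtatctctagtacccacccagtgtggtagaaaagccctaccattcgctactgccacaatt
-15.3 kb, chr6:55321069-55321189, a composite: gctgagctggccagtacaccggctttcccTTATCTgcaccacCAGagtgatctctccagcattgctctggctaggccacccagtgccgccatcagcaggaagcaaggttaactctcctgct
+19.8 kb, chr6:55356195-55356315, a composite: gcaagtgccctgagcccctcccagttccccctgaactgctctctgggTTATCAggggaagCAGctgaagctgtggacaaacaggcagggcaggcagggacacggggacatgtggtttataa
+34.6 kb, chr6:55370999-55371119, a composite: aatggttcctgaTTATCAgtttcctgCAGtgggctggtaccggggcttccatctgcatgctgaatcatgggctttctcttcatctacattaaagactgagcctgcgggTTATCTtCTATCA
+0.9 kb, chr6:55337255-55337375, the nearest to the start site: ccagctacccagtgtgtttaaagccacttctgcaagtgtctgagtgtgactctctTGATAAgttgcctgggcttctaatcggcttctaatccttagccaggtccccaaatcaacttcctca
-22.4 kb, chr6:55314002-55314122, no GATA site: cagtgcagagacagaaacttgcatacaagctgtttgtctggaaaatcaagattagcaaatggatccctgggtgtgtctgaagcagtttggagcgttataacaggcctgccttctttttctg

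In these letters, the strongest peak carried 1 GATA site with a CTG 7 bases before it, and the peak at +3.2 kb carried 2 GATA sites on the plus strand on either side of the summit. The peak at +22.6 kb showed 1 site near the left end of the printed stretch, and its other site lay beyond the right end. The peak at +34.6 kb had a composite with 8 bases between CTG and GATA site, on the minus strand, and a group of 3 sites on the other side of the summit, the last of them past the printed end. The peak at -22.4 kb had no GATA site, and so no composite, within 100 bp of its summit.

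Most of the signal around Aqp1 came from 3 peaks, which lay upstream of, inside and downstream of the gene. The strongest, on chromosome 6 from 55323970 to 55324269, was intergenic and 12312 bp upstream of the Aqp1 TSS. Its signal was 354.1, rank 223 of the optimal list. The next, from 55339530 to 55339770, lay in intron 1 of Aqp1, 3217 bp downstream of the TSS, with a signal of 301.2 (rank 468). The third, from 55358848 to 55359186, was intergenic, 22558 bp downstream of the TSS and past the end of the gene, with a signal of 264.3 (rank 701). Together the 3 made up 55.2% of the summed signal of the 18 peaks, which was 1666.8.

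**Figure D1:**
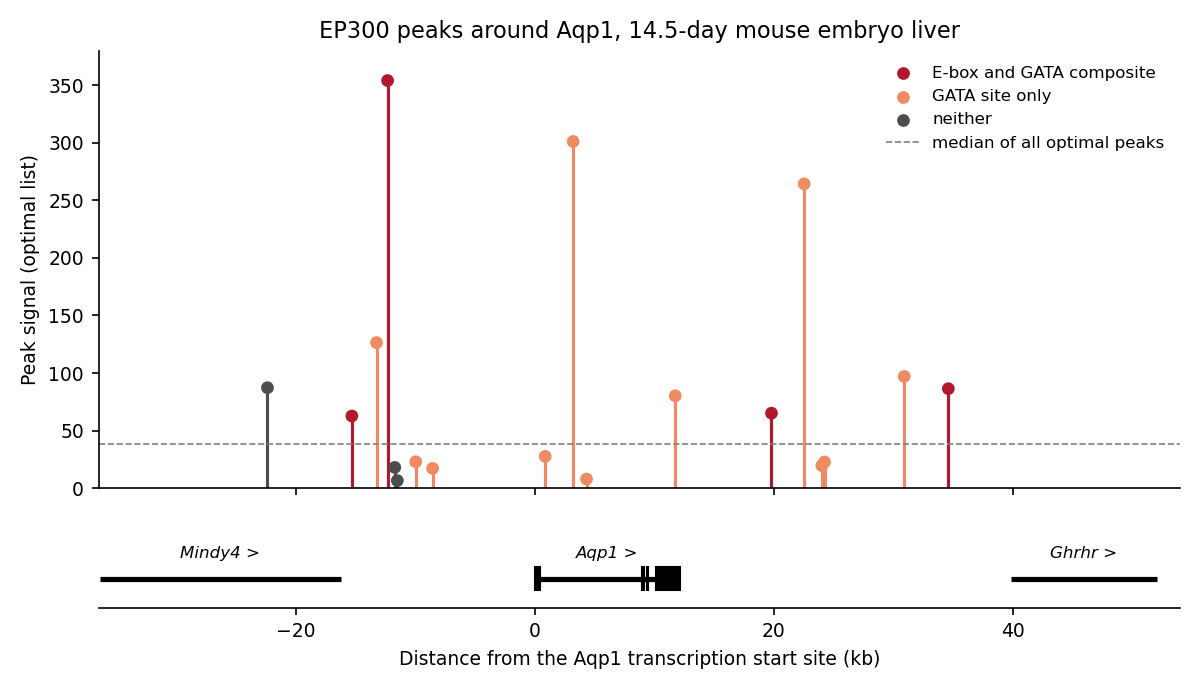
Signal of each of the 18 EP300 peaks in the optimal list (vertical axis) against the distance of its summit from the Aqp1 TSS in kb (horizontal axis), with the protein-coding genes below and the exons of Aqp1 as boxes; colours give the motif within 100 bp of the summit and the dashed line is the median of all optimal peaks, 38.5. The 3 tallest peaks, at 354.1, 301.2 and 264.3, stand upstream of, inside and downstream of Aqp1, and 10 of the 18 peaks lie above the dashed line.

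The remaining 15 peaks were spread over the same stretch at lower signals. Across all 18, the signal ran from 6.54 to 354.1 with a median of 63.9, against a median of 38.5 for all 17043 optimal peaks on the autosomes and X. Of the 18, 10 were above that median and 8 below it. Of the 18, 8 lay upstream of Aqp1 (summed signal 694.9), 4 inside it (416.8) and 6 downstream (555.1). The first and last summits were 56997 bp apart, and the gap between neighbours ran from 213 to 9426 bp with a median of 2063 bp. The widest gap, 9426 bp, was the one that holds the Aqp1 start site, between the peaks at -8.5 and +0.9 kb.

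Upstream of Aqp1, the peaks were densest around the strongest one. A peak of 126.4 lay 928 bp before it, at -13.2 kb (55323115 to 55323274), and a peak of 62.7 at -15.3 kb (55320959 to 55321298). After it came 4 weak peaks, at -11.7 kb (18.001), -11.5 kb (6.54), -10.0 kb (22.9) and -8.5 kb (17.1). The peaks at -11.7 and -11.5 kb overlapped, with summits 213 bp apart. The outermost member, at -22.4 kb (87.3, from 55314020 to 55314104), lay in an intron of Mindy4 and was the only one of the 18 inside that gene.

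Inside Aqp1, 3 of the 4 peaks were in the first intron. They were the strong peak at +3.2 kb and weak ones at +0.9 kb (27.6, from 55337145 to 55337484) and +4.3 kb (7.85). The fourth, at +11.8 kb (80.2, from 55348027 to 55348366), lay in the untranslated part of the last exon, exon 4. No peak had its summit in exons 1 to 3. Downstream of the gene, the peaks at +19.8 kb (65.1), +30.9 kb (97.0) and +34.6 kb (86.4) were each above the median of all optimal peaks. The overlapping pair at +24.0 kb (19.5) and +24.3 kb (22.7), beside the strong peak at +22.6 kb, was below it.

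The start site of Aqp1 itself carried little EP300. The only member within 1 kb of a TSS was the peak at +0.9 kb, 883 bp into the gene, and none had a summit within 500 bp. One member in 18 at a promoter compares with 26.2% of all optimal peaks. Weaker entries did lie closer. The full pooled list of 300000 peaks had one 236 bp downstream of the TSS with a signal of 6.47 (rank 149362). Replicate 1 had entries at 230 bp downstream (3.90, rank 183002) and 251 bp upstream (3.44, rank 265629). Replicate 2 had one 51 bp upstream (4.49, rank 150685). Those ranks are in the middle or the lower part of lists that run far past the size of the optimal list.

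The 250 bases before the RefSeq start of Aqp1 (chr6:55336049-55336298, GRCm38.p6, plus strand) are shown beside the letters of the summits. Capitals mark the letters CCNCNCCC, bound by Krüppel-like factors such as KLF1, on either strand.
Aqp1 promoter: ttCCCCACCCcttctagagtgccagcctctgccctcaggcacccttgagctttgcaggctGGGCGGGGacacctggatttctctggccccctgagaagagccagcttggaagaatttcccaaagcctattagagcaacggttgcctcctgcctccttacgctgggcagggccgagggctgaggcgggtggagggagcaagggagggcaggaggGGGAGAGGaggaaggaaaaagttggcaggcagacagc
The stretch held 3 such matches, 1 on the plus strand and 2 on the minus strand, and no GATA site. At least 1 match is present in 45.9% of 32851 RefSeq promoter windows of this length, and a GATA site in 26.5%. The GENCODE start of Aqp1 that sets the distances in this text, at 55336432, is further downstream than the RefSeq start.

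The strong peaks of the cluster were found in both libraries and kept their order. The optimal list was drawn by IDR from lists of these same libraries, so this is in part built in. The peak at -12.3 kb had a signal of 185.6 (rank 183) in replicate 1 and 170.2 (rank 289) in replicate 2. That at +3.2 kb had 150.5 (rank 480) and 153.2 (rank 456). That at +22.6 kb had 144.8 (rank 532) and 118.7 (rank 966). These were the first 3 of the 18 in each library, in this order, and the fourth in each was the peak at -13.2 kb, with 63.3 (rank 2512) and 65.1 (rank 2587). In each library the first 3 were thus apart from the fourth. The peaks at +3.2 and +22.6 kb were close to each other in replicate 1, so their order rests mainly on replicate 2.

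**Figure D2:**
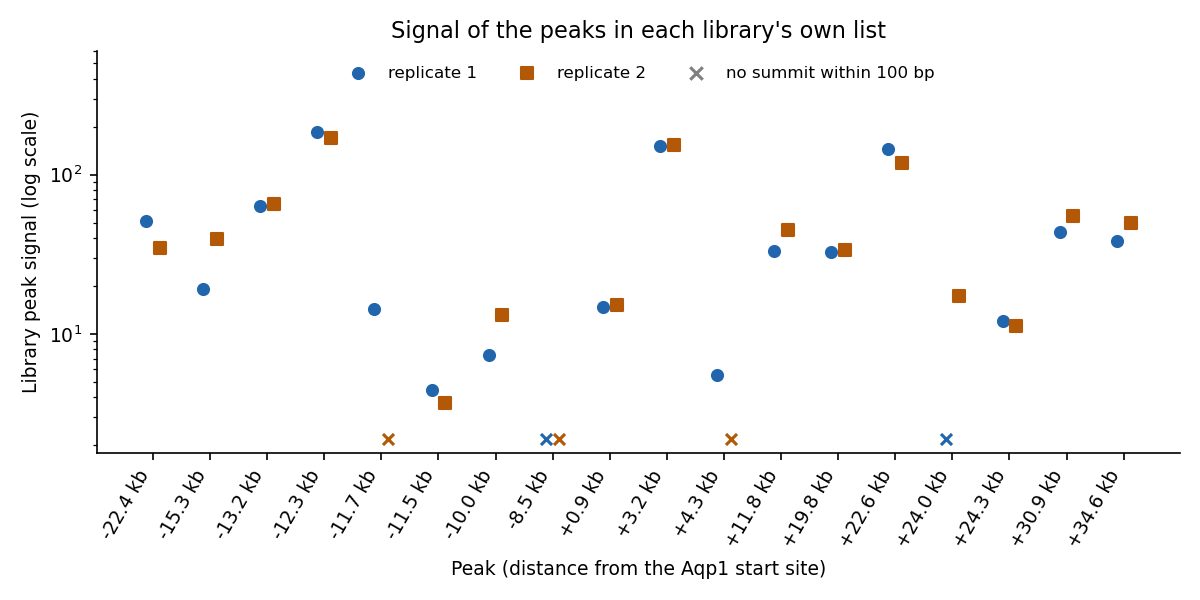
Signal of each of the 18 peaks in the list of replicate 1 (circles) and of replicate 2 (squares) on a log scale, with the peaks in genome order along the horizontal axis; crosses mark a library with no summit within 100 bp, drawn at an arbitrary height. The first 4 peaks by signal, at -12.3, +3.2, +22.6 and -13.2 kb, are the same in both libraries, and all 5 crosses fall on peaks with an optimal signal below 20.

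The next 6 peaks did not all stand in the same order in the 2 libraries. The 6 were those at +30.9, -22.4, +34.6, +11.8, +19.8 and -15.3 kb, with optimal signals from 62.7 to 97.0. In replicate 1 they ran from 19.1 to 51.0 and in replicate 2 from 33.6 to 55.1. The peaks at +30.9, +34.6, +11.8 and +19.8 kb stood in this order in both libraries and in the optimal list, with the last pair at 33.2 and 32.9 in replicate 1. The peak at -22.4 kb was the first of the 6 in replicate 1 (51.0) and the fifth in replicate 2 (34.5). The peak at -15.3 kb was the last in replicate 1 (19.1) and the fourth in replicate 2 (39.4). Its log2 ratio of replicate 2 to replicate 1 was 1.05, the highest of the 14 members found in both libraries on the scale of signal. Over these 14 the log2 ratio ran from -0.56 to 1.05 with a median of 0.04. Over all 14360 optimal peaks found in both it had a median of 0.07, and 5% were below -1.03 and 5% above 1.22.

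The 8 peaks below the median of all optimal peaks were less regular. A summit of each library within 100 bp was present for 14 of the 18 members, against 84.3% of all optimal peaks. It was present for all 10 members above the median and for 4 of the 8 below it, where the shares over all optimal peaks were 98.7% and 69.8%. The members that lacked one were those at -11.7 and +4.3 kb in replicate 2, at +24.0 kb in replicate 1 and at -8.5 kb in both. For the last, no library summit was closer than 103 bp. The count depended on the distance allowed, with 11 members at 25 bp and 17 at 250 bp. The wider distance in part counts one library summit for 2 overlapping members. The replicate 2 summit 243 bp from the peak at -11.7 kb is the one matched to -11.5 kb. Likewise, the replicate 1 summit 232 bp from the peak at +24.0 kb is the one matched to +24.3 kb. The faintest member, at -11.5 kb, ranked 122426 in replicate 1 and 272447 in replicate 2 and was in the optimal list all the same. It shared its score in that list, 752, with the overlapping peak at -11.7 kb, whose replicate 1 rank was 11370. The scores of 10 members, those above the median, were at the end of the scale, 1000, as were those of 11856 of all 17055 optimal peaks.

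The conservative list, the stricter of the authors' reproducible sets, had 16 peaks in the window, of which 14 were members. The 4 members it lacked were at -11.7, -11.5, -10.0 and +4.3 kb. Its 2 further entries were at +6.2 kb, in Aqp1 (22.0, from 55342418 to 55342757), and at -8.3 kb (6.74). The entry at -8.3 kb, from 55327920 to 55328259, overlapped the member at -8.5 kb and ranked 129154 in the pooled list. It had a summit within 100 bp in replicate 1 (rank 21477) and none in replicate 2. The entry at +6.2 kb had summits in both libraries, at rank 16291 in replicate 1 and 17332 in replicate 2, and was stronger than 5 members, yet it was not in the optimal list. Just inside the optimal list, the faintest members had signals of 6.54 and 7.85. In all, the pooled list had 44 entries in the window, and the 26 that were no members had signals from 5.27 to 22.0 with a median of 6.90.

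At the edges of the window, the members ended differently on each side. On the left, an optimal peak of 8.16 had its summit 40 bp outside the window, at 55299961, with another of 33.8 close before it. Both lay within Mindy4, where the antisense gene Gm44073 overlaps it, and the former was 14101 bp from the first member. On the right, the next optimal summit was 263810 bp beyond the last member, at 55634869 (47.9), with Neurod6, a neuronal transcription factor gene, as the gene with the nearest TSS.

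Mindy4 held optimal peaks at several places along its body. Of the 7 optimal summits in its body, 1 was the member at -22.4 kb. The strongest was 222.6, on chromosome 6 from 55263720 to 55263969, at 60465 bp into the gene and 72584 bp upstream of the Aqp1 TSS. It ranked 1161 in replicate 1 and 947 in replicate 2, where the lists hold 300000 peaks each. A peak of 114.9 lay next to it, from 55264863 to 55265000, and the others had signals of 31.3, 26.3, 33.8 and 8.16. The first TSS of Mindy4 was 34499 bp or more from each of the 7, and the shortest distance from any of its TSSs to an optimal summit was 13199 bp.

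Other genes nearby had few or no peaks of their own. Measured to the nearest TSS of a protein-coding gene, 13 members were nearest to Aqp1, 5 to Ghrhr and none to Mindy4. Ghrhr had no optimal summit in its body, and its nearest member, at +34.6 kb, was 5236 bp from its TSS. No optimal summit lay within 20 kb of a TSS of Inmt, an amine N-methyltransferase gene, of Crhr2, a receptor gene for corticotropin-releasing hormone and urocortins, or of Adcyap1r1, the gene of the PACAP receptor. The nearest were 62839, 104866 and 80919 bp away. The microRNA gene Gm25458, which lies within Mindy4, had its nearest member, at -22.4 kb, 5157 bp away.

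GATA sites lay close to the summits of most members. Of the 18 peaks, 15 had at least 1 no further than 100 bp from the summit (83.3%), against 74.7% of all optimal peaks. Of the members, 9 had 1 site, 4 had 2, 1 had 3 (at -8.5 kb) and 1 had 4 (at +34.6 kb). The 3 without were at -22.4, -11.7 and -11.5 kb. Among members above the median signal 9 of 10 had a site, against 86.3% of all such peaks, and among those below it 6 of 8, against 63.1%. No test was made of these shares. Signals with a site ran from 7.85 to 354.1 and without one from 6.54 to 87.3, so the ranges overlapped.

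The nearest sites lay close to the summits. In each of the 15 members with a site, the nearest one was within 50 bp (83.3% of members, against 67.2% of all optimal peaks), at 1.5 to 47.5 bp and with a median of 17.5 bp, which is also the median over all optimal peaks with a site. The members at +22.6 and +34.6 kb, 2 in all, had a site between 50 and 100 bp (11.1%, against 29.2% of all optimal peaks). In flanks of nearly the same total length, at 400 to 500 bp on either side, 2 members had a site, against 29.2% of all optimal peaks. The whole window of 90.0 kb held 179 sites. Of these, 24 lay in the 3.62 kb within 100 bp of the members' summits, or 6.63 per kb, and the rest of the window had 1.79 per kb. Most GATA letters in the window were thus outside any member.

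**Figure D3:**
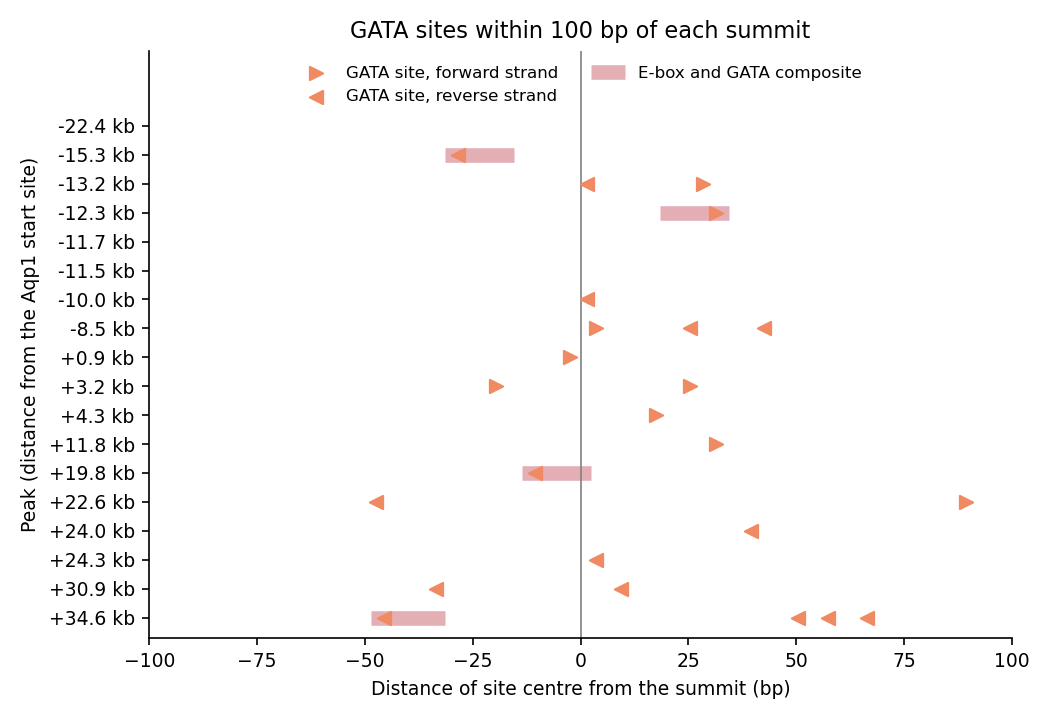
Position of each GATA site (triangles pointing right for the plus strand and left for the minus strand) and of each E-box and GATA composite (red bars) relative to the summit, in bp, with the 18 peaks in genome order from top to bottom. In all 15 peaks with a site, the nearest lies within 50 bp of the summit, and the peaks at -22.4, -11.7 and -11.5 kb have none.

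The composite of CTG and a GATA site, the arrangement bound by TAL1 and GATA1 together, was present in 4 members, against 27.7% of all optimal peaks. They were at -15.3, -12.3, +19.8 and +34.6 kb, with signals of 62.7, 354.1, 65.1 and 86.4. The space between the elements was 7 bases in the first 3 and 8 in the last. Each of the 4 was intergenic. The window held 10 composites in all, so 6 were not at a member's summit. The peaks at +3.2 and +22.6 kb had GATA sites without this arrangement.

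Other motifs were searched in the same stretch of 100 bp on either side of the summit, on both strands. The E-box CANNTG, which a composite need not contain in full, was in 15 members (83.3%, against 68.7% of all optimal peaks). The core TGANTCA of AP-1 and NFE2, which act in megakaryocytic and erythroid genes, was in 2, at -15.3 and +34.6 kb, both of which also had a composite (all optimal peaks 7.58%). The KLF letters CCNCNCCC were in 3 (27.2%), with 2 matches at -10.0 kb. The ETS letters GGAAG after an A or a C were in 3 (30.6%), the RUNX letters TGNGGT, with T or C for N, in 4 (20.8%) and the STAT letters TTCNNNGAA in 2 (6.74%). Among letters bound by hepatocyte factors, TTGCNNAA of C/EBP proteins was in 2 (8.06%), AGGTCA of nuclear receptors in 1 (10.2%) and the forkhead letters TNTTTAC, with G or A for N, in none (5.14%). A match describes the letters only and is no evidence of binding.

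**Figure D4:**
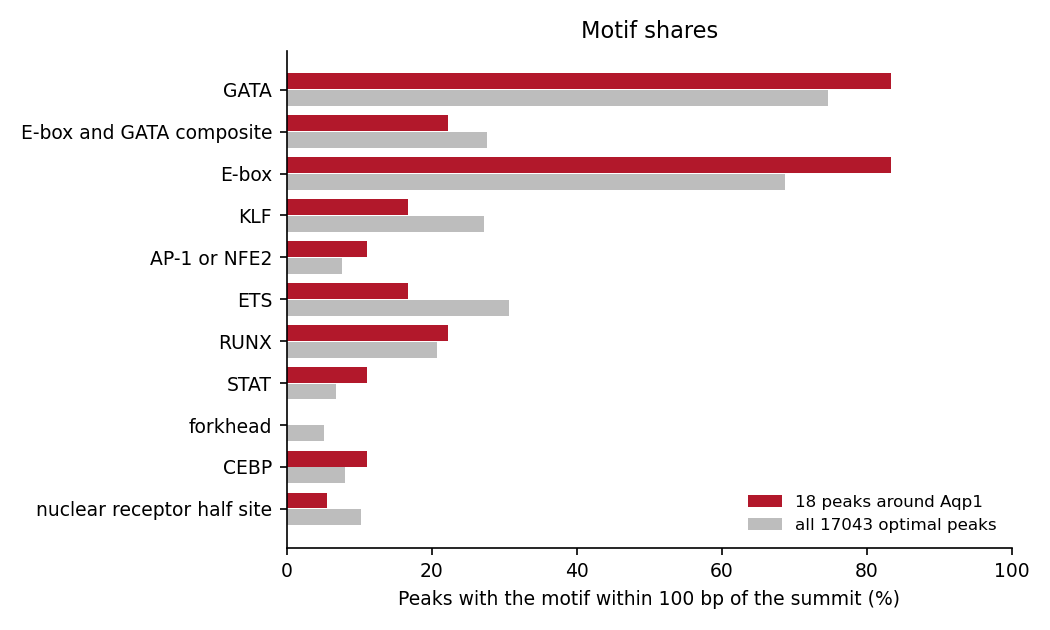
Share of peaks with each motif within 100 bp of the summit, in percent, for the 18 peaks around Aqp1 (red) and for all 17043 optimal peaks (grey). GATA letters and E-boxes are each in 83.3% of the 18 peaks, and no forkhead letters were found in them.

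In base composition the members were ordinary. The GC share within 100 bp of the summit ran from 42.3 to 60.7% with a median of 49.0%, against 48.3% for all optimal peaks. None of the 18 had most of these bases in repeats, against 4.14% of all. The largest repeat share among members was 48.8%, at -15.3 kb. Most of the 18 peaks, 12, had a deposited width of 340 bp, and the narrowest, at -22.4 kb, was 85 bp wide.

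Joined with neighbours at a single distance, set above their widest gap, 9426 bp, and below the 14101 bp to the next optimal summit, the 18 peaks formed a single cluster with no other peak in it. It ranked 8 by number of peaks and 11 by summed signal among 9757 clusters, of which 460 held at least 5 peaks. By its strongest peak it ranked 210. The result depended on the joining distance. With 5 kb the members fell into 6 clusters, the largest with 7 peaks and a summed signal of 607.7, which ranked 16 by number and 91 by sum. With 25 kb the cluster took in the pair of peaks left of the window and held 20 peaks, at rank 8 and 17.

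Among the 3 clusters most like it in number of peaks, summed signal and strongest peak were those at Picalm and Tbxas1. Likeness was measured as the distance over standardized log2 values among the 460 clusters, and each cluster was named by the protein-coding gene with the TSS nearest to its strongest peak. The cluster at Picalm, a clathrin adaptor gene, had 20 peaks with a summed signal of 1987.0, and its strongest peak (518.8) was 67177 bp from that TSS. The cluster at Tbxas1, the gene of thromboxane synthase, had 20 peaks with a summed signal of 2366.5 and a strongest peak of 439.6. Their distances from the Aqp1 cluster were 0.751 and 0.752. The median peak at Aqp1 was 63.9, against 37.2 at Picalm and 36.9 at Tbxas1. The GATA count was 15 of 18 at Aqp1, 15 of 20 at Picalm and 17 of 20 at Tbxas1. Promoter peaks numbered 1, 3 and 2 in the same order, and intergenic peaks 13, 14 and 0. These differences between single loci were not tested.

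**Figure D5:**
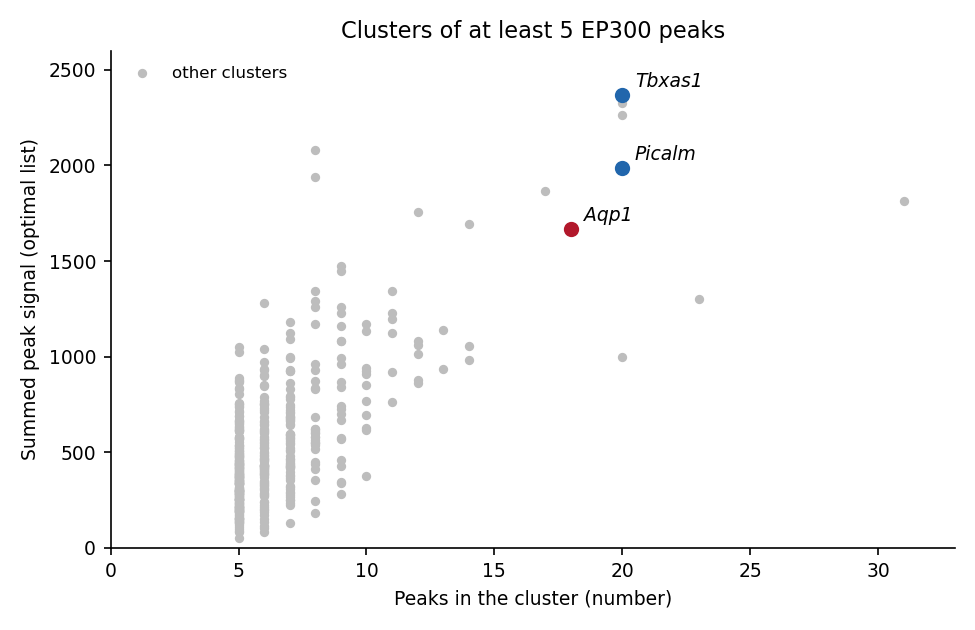
Summed peak signal (vertical axis) against the number of peaks (horizontal axis) for the 460 clusters of at least 5 EP300 peaks, joined at a single distance, which lies between 9426 and 14101 bp. The cluster at Aqp1 (red) has 18 peaks and a summed signal of 1666.8, and the clusters at Picalm and Tbxas1 (blue) have 20 peaks each.

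Counted by gene, Aqp1 had 12 optimal summits no further than 20 kb from its TSS, rank 33 of 21755 protein-coding genes, a count shared with the others of 20 genes in all. Ghrhr had 5 and Mindy4 had 3. Each of the 5 at Ghrhr is also a member of the Aqp1 cluster, so the count does not say which gene a peak serves.

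Among the 12 aquaporin genes, 7 had a peak of the optimal list within 20 kb of their start site (58.3%, against 38.6% of protein-coding genes). Aqp9, the glycerol and urea channel of hepatocytes, had a higher strongest peak than Aqp1, 402.9 on chromosome 9 from 71166024 to 71166366 in its own intron, with 7 peaks within 20 kb. Aqp3, a glycerol channel also found in red cells, had 4 peaks, the strongest 273 on chromosome 4 from 41087449 to 41087678. Aqp8, a water channel of hepatocytes and gut, had 3, the strongest 228.8 and 43 bp from its TSS, on chromosome 7 from 123462143 to 123462443. Mip of the eye lens (92.3), the intracellular channel gene Aqp11 (76.2) and Aqp7 of fat cells (16.9) had 2, 2 and 1. Aqp2, Aqp4, Aqp5 and Aqp6 had none within 50 kb, and Aqp12 none within 20 kb. Aqp1 thus had the most peaks of the family and Aqp9 the strongest. Aqp1 was chosen for its many peaks, so its first place by number follows from the choice. It is also 1 of the 7 genes counted. Of the 7 strongest peaks, those at Aqp8 and Aqp9 had no GATA site within 100 bp of the summit and the other 5 had at least 1.

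Among 24 genes of channels, carriers and pumps of the red cell membrane, 22 had such a peak (91.7%, against 38.6% of protein-coding genes). Aqp1 and Aqp3 are on this list too. The strongest peaks were at Abcg2, a porphyrin and urate exporter (463.5), Kcnn4, the Gardos potassium channel (377.0), Rhag, the Rh-associated glycoprotein (365.6, in an exon of Crisp2), Aqp1 (354.1), Slc4a1, the anion exchanger (331.6), and Piezo1, a mechanosensitive channel (321.3). By number of peaks within 20 kb, Slc4a1 had 23, Aqp1 12, Kcnn4 11 and Abcg2 4. Slc12a7, a potassium and chloride cotransporter gene, and Abcc1, a drug and glutathione conjugate exporter gene, had none within 50 kb. The list was written with earlier results of these data known, so its count is no independent evidence of an erythroid character of the peaks.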

How the data were processed

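EP300 ChIP-seq peaks from 2 libraries of embryonic mouse liver were analysed as deposited, in narrowPeak format on mm10. The notes beside the files name 1 alignment and 1 unnamed further file behind a library's peaks and the alignments of both libraries behind the pooled list. The optimal and conservative lists were drawn from these lists by IDR (irreproducible discovery rate). Aligner, peak caller and threshold: not given in the sources used here. The signal values are deposited ones, from the authors' peak caller. The optimal list also has a deposited score per peak, which ends at 1000.

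Summits were set on the GRCm38 genome and GENCODE vM21, and no peak ran past a chromosome end. Background shares used 17043 peaks, those of the optimal list on 19 autosomes and X. A library summit within 100 bp counted as the same peak. Motif letters were searched within 100 bp of the summit, promoters were within 1 kb of any TSS, and genes had a peak with a summit within 20 kb. Clusters joined summits within 12500 bp. The promoter and its background came from RefSeq (GRCm38.p6), and the other sequences from the RefSeq genome. No test was made, because the members were chosen on these peaks. Searching and matching were tested on simulated data.

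The members and lists were chosen with earlier results of these data known. Named genes were those overlapping the window, the protein-coding genes within 200 kb, the aquaporins, the 6 red cell channel genes with the strongest peaks and those without one within 50 kb, and the 3 most similar clusters, of which 1 is not reported here. Neurod6, Crisp2, Alb, Afp and Hbb-bs were added after their values were seen. Python 3.11.15, numpy 2.4.6, pandas 2.3.3, pysam 0.24.0 and matplotlib 3.10.9 were used.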

Additional observations from a re-analysis of the deposited data

How the results depend on the processing

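The 11 values that describe the cluster and its gene lists were recomputed under 57 combinations of value and alternative, and 50 stayed within 1.5 times the value reported. With optimal peaks above the median signal alone, the window held 10 peaks, 9 with a GATA site, and 0 at a promoter. With a promoter window of 500 bp the count of promoter peaks was also 0. Joining summits at 5 kb moved the rank of the cluster to 16 by number and 91 by summed signal, and joining at 25 kb moved the latter to 17. Each library alone, taken to as many top peaks as the optimal list holds, gave 14 to 17 peaks in the window, 12 to 13 with a GATA site, 4 with a composite and 1 at a promoter. The conservative list gave 16 peaks with a summed signal of 1640.3 and the top of the pooled list gave 17 with 1675.3. The strongest peak was the same in every deposited list tried. Summed signals were not recomputed in single libraries, whose scale differs. No paired analysis was possible because the series holds 1 group. Read depth is unknown, so a weak peak found in only 1 library may be below what the other could detect, which was not tested.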
